A study of Mus musculus with 12 samples.

Results

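The B3galt and Gcnt glycosyltransferases are 7 genes (B3galt1, B3galt2, B3galt5, B3galt6, Gcnt1, Gcnt2 and Gcnt4) of the 55385 genes measured in mouse brain in this study. Gcnt1 and B3galt1 were taken because the paper discusses them for the effect of krill oil in stressed mice, and the other 5 because they belong to the same gene families. All 7 had a mean level of at least 0.1 FPKM (mapped fragments scaled for gene length and library size) and were among the 21393 genes tested. Because Gcnt1 and B3galt1 were chosen with values of the stressed groups in view, their levels in comparisons that use those groups are given as description without a test.

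The samples were described as whole brains of male C57/BL6J mice of genotype WT, bought at 8 weeks of age. The mice were perfused with saline before the brain was taken. There were 4 groups of 3 mice, and each mouse gave 1 library of poly(A) RNA. The C_W mice (control plus water) received water by gavage and no stress, and the C_O mice (control plus oil) were given krill oil (200 mg/kg, once daily, 5 weeks) without stress. The MS_W mice were exposed to chronic unpredicted mild stress (CUMS) for 4 weeks and received water, and the MS_O mice had the same 4 weeks of CUMS together with the same krill oil treatment as the C_O mice. CUMS is a rodent procedure in which mild stressors such as damp bedding, tilted cages, restraint and strobe light are applied in a varying order. Krill oil is a marine oil rich in phospholipids that carry omega-3 fatty acids. The 3 mice of a group were picked at random from a larger group, and libraries are named here by group and mouse number.

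Both families act in the Golgi apparatus, where they lengthen or branch the sugar chains of glycoproteins and glycolipids. B3galt enzymes add galactose in a beta-1,3 linkage: B3galt1, B3galt2 and B3galt5 add it to N-acetylglucosamine and so start type 1 chains, while B3galt6 adds a galactose of the linker through which heparan sulfate and chondroitin sulfate chains are attached to proteoglycans. Gcnt enzymes add N-acetylglucosamine in a beta-1,6 linkage and so open a branch: Gcnt1 and Gcnt4 make core 2 branches on mucin-type O-glycans, and Gcnt2 makes the I branches of poly-N-acetyllactosamine chains. In brain, such glycans are carried by adhesion molecules, receptors and the proteoglycans of the extracellular matrix, and galactosylated glycolipids are abundant in neuronal membranes and myelin.

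The genes lie on 6 chromosomes of the mm10 build, and the table gives per-gene values only, so that isoforms are not resolved. B3galt1 (ENSMUSG00000034780) spans chr2:67565871-68122689 on the plus strand with its coding sequence near the 3′ end (chr2:68117943-68118920 in GENCODE M21). B3galt2 (ENSMUSG00000033849) is at chr1:143640664-143654614 on the plus strand, and its exons overlap an exon of Cdc73 on the opposite strand. B3galt5 (ENSMUSG00000074892) is at chr16:96235801-96319859 on the plus strand. B3galt6 (ENSMUSG00000050796), a gene with 1 transcript in the table, is at chr4:155989466-155992649 on the minus strand. Gcnt1 (ENSMUSG00000038843) is at chr19:17326141-17356667 on the minus strand. Gcnt2 (ENSMUSG00000021360) and Gcnt4 (ENSMUSG00000091387) are on the plus strand of chromosome 13, at chr13:40859754-40960891 and chr13:96924689-96950906. Gcnt2 has 6 transcripts in the table, and exons of both genes overlap exons of noncoding genes on the opposite strand. The libraries kept strand, but whether strand was used in the counting is not stated, so reads of B3galt2, Gcnt2 and Gcnt4 cannot be told apart with certainty from those of their overlapping partners. Cdc73 itself was between 1.20 and 1.93 FPKM in the 12 libraries.

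Promoter sequence is shown for B3galt2 and Gcnt4, whose levels went together across the libraries, for B3galt6, whose level varied least, and for B3galt1, whose levels fell into 2 separate ranges. Each line holds 200 bases, from 250 to 51 bases before the RefSeq start nearest to the start of the gene in the table (GRCm38.p6, 5′ to 3′ on the strand of the gene), with CG dinucleotides in capitals.
B3galt2, chr1:143640447-143640646, plus strand: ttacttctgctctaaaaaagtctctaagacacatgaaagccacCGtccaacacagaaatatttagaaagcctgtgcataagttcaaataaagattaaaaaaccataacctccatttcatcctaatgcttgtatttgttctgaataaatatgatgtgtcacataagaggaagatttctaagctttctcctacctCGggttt
Gcnt4, chr13:96924463-96924662, plus strand: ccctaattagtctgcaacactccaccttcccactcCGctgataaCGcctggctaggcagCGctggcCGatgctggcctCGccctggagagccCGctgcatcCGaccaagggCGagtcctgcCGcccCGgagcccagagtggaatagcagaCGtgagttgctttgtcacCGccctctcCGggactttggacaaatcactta
B3galt6, chr4:155992729-155992928, minus strand: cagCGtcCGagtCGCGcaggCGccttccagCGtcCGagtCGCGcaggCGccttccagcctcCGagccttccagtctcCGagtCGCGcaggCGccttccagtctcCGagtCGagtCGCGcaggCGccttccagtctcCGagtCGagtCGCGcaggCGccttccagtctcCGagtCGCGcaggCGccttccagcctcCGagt
B3galt1, chr2:67565439-67565638, plus strand: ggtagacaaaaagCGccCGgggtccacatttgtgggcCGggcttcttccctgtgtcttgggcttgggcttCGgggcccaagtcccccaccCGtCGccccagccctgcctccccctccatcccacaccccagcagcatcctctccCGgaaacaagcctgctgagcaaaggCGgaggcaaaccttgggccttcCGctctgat

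The 4 windows differed widely in composition. The B3galt2 window held 2 CG dinucleotides and was 34.5% G or C, whereas the B3galt6 window held 30 and was 70.5% G or C. At least as many CG dinucleotides as in the B3galt6 window were found in 2.08% of the 32851 windows of the same length in the RefSeq table, whose median was 4. The Gcnt4 window held 13 and the B3galt1 window 9. The letters GGGCGG, a GC box, were found on either strand in 24.6% of all windows, and 2 times in that of Gcnt4 but in none of the other 6. The windows of B3galt2 and Gcnt4 thus differed in these counts. Whether the composition of a window goes with the level of its gene was not tested.

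Total estimated counts per library were between 50912906 and 75678721, and each of the 7 genes had between 75 and 8878 estimated counts per library. In regional markers, 2 libraries (C_O72 and MS_W95) were unlike the remaining 10. The 8 hindbrain markers summed to 87.1 FPKM in C_O72 and 50.4 FPKM in MS_W95, against 0.0173 to 0.566 FPKM in the other 10, and the 8 cerebellum markers summed to 298 and 1021 FPKM against 27.9 to 44.9 FPKM. In the libraries of C_W and MS_O the Hox genes Hoxa5, Hoxb3 and Hoxc4 were listed at the floor of the table (0.0001 FPKM). The cerebellar genes Pcp2 and Gabra6 were 31.3 and 23.9 FPKM in C_O72 and 114 and 91.3 FPKM in MS_W95. In the other 10 libraries they were at most 0.212 and 0.129 FPKM, although all samples are described as whole brain. Whether the tissue taken differed between libraries was not tested. The 8 cortex markers were lowest in C_O72 and MS_W95. For the 7 genes, values without these 2 libraries are given beside the results they bear on, and values not so marked are from all 12. In bulk tissue, fewer cells of a type and less RNA per cell cannot be told apart.

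Levels per gene length ran from B3galt5 at 9.22 FPKM on average over the 12 libraries, through B3galt6 at 4.31, B3galt2 at 2.46, Gcnt4 at 2.39, B3galt1 at 2.20 and Gcnt2 at 1.69, to Gcnt1 at 1.54 FPKM. B3galt5 was above B3galt6 in 12 of 12 libraries, and B3galt6 was above B3galt2 in 11 of 12. Below these, neighbours in the order were not separated: B3galt2 was above Gcnt4 in 7 libraries, Gcnt4 above B3galt1 in 8, B3galt1 above Gcnt2 in 6 and Gcnt2 above Gcnt1 in 9 of 12. The spread differed more than the mean. The highest library was 1.65 times the lowest for B3galt6, but 20.9 times for Gcnt1.

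**Figure D1:**
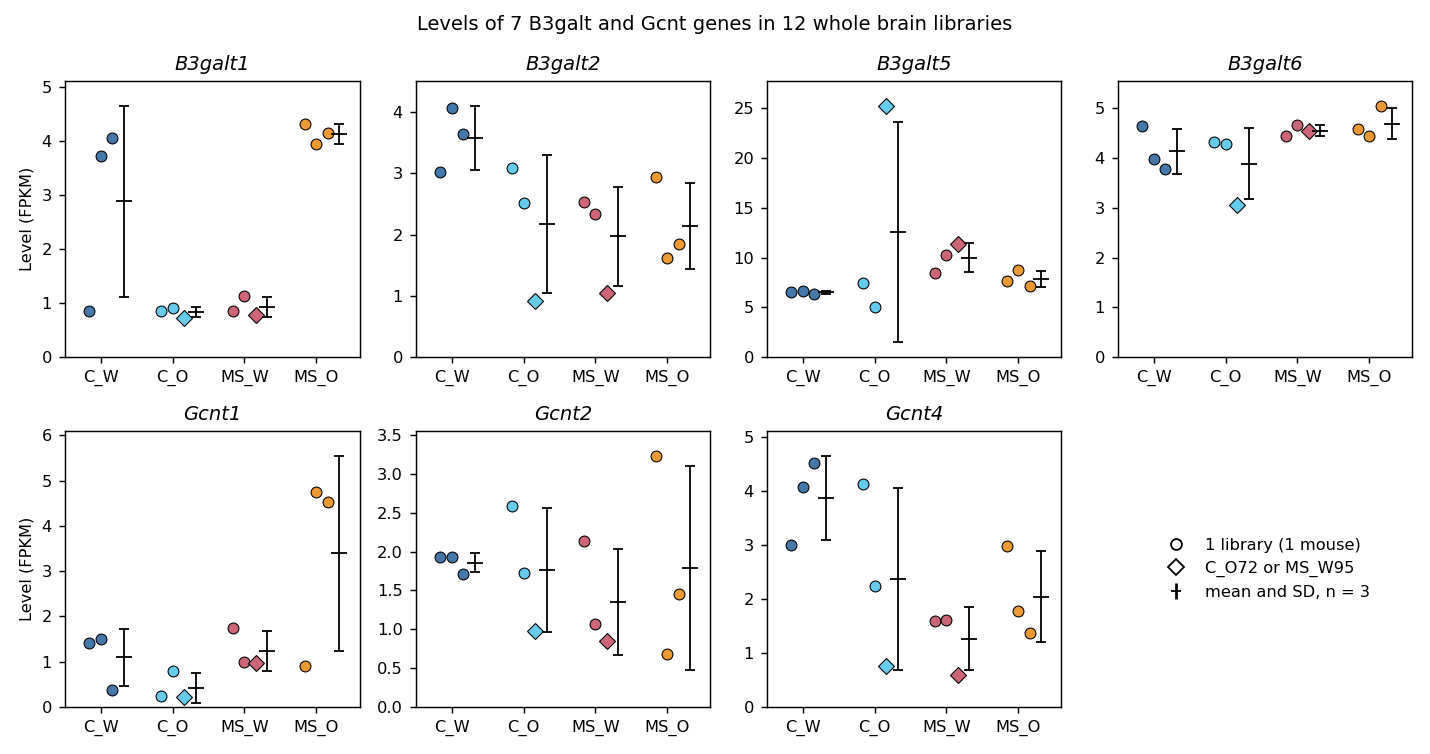
Level in FPKM (linear axis from 0) of each of the 7 genes in the 12 libraries, by group, with 1 point per mouse and the mean and SD of 3 mice beside the points. B3galt1 lies either between 0.728 and 1.13 or between 3.74 and 4.33 FPKM, B3galt6 hardly moves, and the highest B3galt5 value is that of C_O72 at 25.2 FPKM.

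B3galt1, which transfers galactose to N-acetylglucosamine to start type 1 chains, was found at 2 separate levels. In C_W it was 0.860, 3.74 and 4.07 FPKM, in C_O 0.852, 0.914 and 0.728 FPKM, in MS_W 0.863, 1.13 and 0.790 FPKM, and in MS_O 4.33, 3.95 and 4.15 FPKM. The C_W group was thus divided, with C_W1 at the low level and C_W64 and C_W70 at the high one, while each of the other groups lay wholly at 1 level. The 7 low libraries averaged 0.877 ± 0.127 FPKM (SD) and the 5 high ones 4.04 ± 0.220 FPKM, with nothing between 1.13 and 3.74 FPKM. That gap made up 67.1% of the whole range on the log2 scale. The largest such gap with at least 3 libraries on each side was 24.5% of the range for Gcnt1 and 9.76 to 19.7% for the other 5 genes. Among 13621 genes with a mean of at least 1 FPKM, 22 had a gap as large, B3galt1 included. The low level rested on 241 to 426 estimated counts per library and the high level on 1454 to 2052.

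As description, B3galt1 was 4.46 times higher in MS_O than in MS_W (4.14 ± 0.190 against 0.928 ± 0.179 FPKM, SD, n = 3) and 4.98 times higher in MS_O than in C_O (0.832 ± 0.0947 FPKM), without overlap in either case. Of all tested genes, 12.3% did not overlap between MS_W and MS_O and 12.2% did not overlap between C_O and MS_O. These 2 comparisons share the MS_O libraries. Between C_W and MS_W the groups overlapped, with a ratio of means of 0.321 that rests on C_W64 and C_W70. The values stayed on the same side without C_O72 and MS_W95, at a log2 fold change of 1.37 for MS_O against MS_W and 1.45 for MS_O against C_O on the log2(FPKM + 1) scale used for all fold changes here, against 1.42 and 1.49 with all libraries.

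C_W against C_O, the comparison of krill oil with water in unstressed mice, compares means that use none of the stressed libraries for which B3galt1 was chosen, although the spread was taken from all 4 groups. B3galt1 was 2.89 ± 1.76 FPKM in C_W and 0.832 ± 0.0947 FPKM in C_O, a log2 fold change of -0.96 ± 0.31 (SE). It did not pass the threshold of 0.05 over all genes (limma, adjusted p = 0.908, with C_O30 above C_W1). This call rested on C_W1: without that library the log2 fold change was -1.42 with an adjusted p of 0.00839 in limma. DESeq2 on the estimated counts gave an adjusted p of 0.0411 with all libraries, whereas edgeR gave 0.936. Over all alternatives the adjusted p ran from 0.00839 to 1. Of all tested genes, 4 of 21443 passed in limma without C_W1 and 54 of 21393 passed in DESeq2. The correlations of B3galt1 with the 12 lists lay between -0.48 and 0.49 over 12 libraries. Summed choroid plexus markers were 914 FPKM in C_W1 (low level) and 39.4 and 102 FPKM in C_W64 and C_W70 (high level). In the same order, the striatum markers were 105, 50.7 and 56.9 FPKM and the cortex markers 431, 466 and 426 FPKM. Over all libraries these sums overlapped between the 2 levels. From low to high level, choroid plexus sums were 28.4 to 5062 and 34.4 to 682 FPKM. Striatum sums were 53.2 to 545 and 50.7 to 362 FPKM, and cortex sums 79.2 to 445 and 261 to 466 FPKM. The part of these markers in the B3galt1 values was not tested.

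Gcnt1, the main core 2 branching enzyme, had the widest range of the 7 genes. It was 1.42, 1.50 and 0.378 FPKM in C_W, 0.237, 0.797 and 0.227 FPKM in C_O, 1.74, 0.992 and 0.971 FPKM in MS_W, and 0.903, 4.74 and 4.53 FPKM in MS_O. The MS_O mean thus came from MS_O46 and MS_O78, while MS_O13 was below all 3 MS_W libraries. As description, the mean was 3.39 ± 2.16 FPKM in MS_O and 1.23 ± 0.438 FPKM in MS_W, a ratio of 2.75 between overlapping groups. MS_O did not overlap with C_O, where the mean was 0.420 ± 0.326 FPKM. In C_W against C_O, whose means use no stressed library although the spread was taken from all 4 groups, the log2 fold change was -0.54 ± 0.40 (limma, adjusted p = 0.908). It was -0.44 without C_O72 and MS_W95.

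Markers of the olfactory bulb moved with Gcnt1. The 8 markers (Dlx1, Dlx2, Dlx5, Sp8, Th, Eomes, Tbx21 and Synpr, genes of bulb interneurons and projection neurons) summed to 198 and 195 FPKM in MS_O46 and MS_O78, the 2 libraries with high Gcnt1, and to 45.0 FPKM in MS_O13. The sum ranged from 15.4 to 59.5 FPKM in C_W, from 9.82 to 36.8 in C_O and from 20.1 to 86.8 in MS_W, and no marker was at the floor in all libraries of a group. In MS_O, 8 of 8 markers had a higher mean than in MS_W, none without overlap, and 7 of 8 were higher than in C_O without overlap. Of all tested genes, 12.3% and 12.2% did not overlap in these comparisons. Th, the rate-limiting enzyme of dopamine synthesis, was 56.6 and 64.9 FPKM in MS_O46 and MS_O78 and 10.4 FPKM in MS_O13. Across the 12 libraries, which differ in regional markers, the correlation of Gcnt1 with the mean level of this list was 0.94, and it was 0.98 over 10 libraries. The part of these markers in the Gcnt1 values was not tested.

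**Figure D2:**
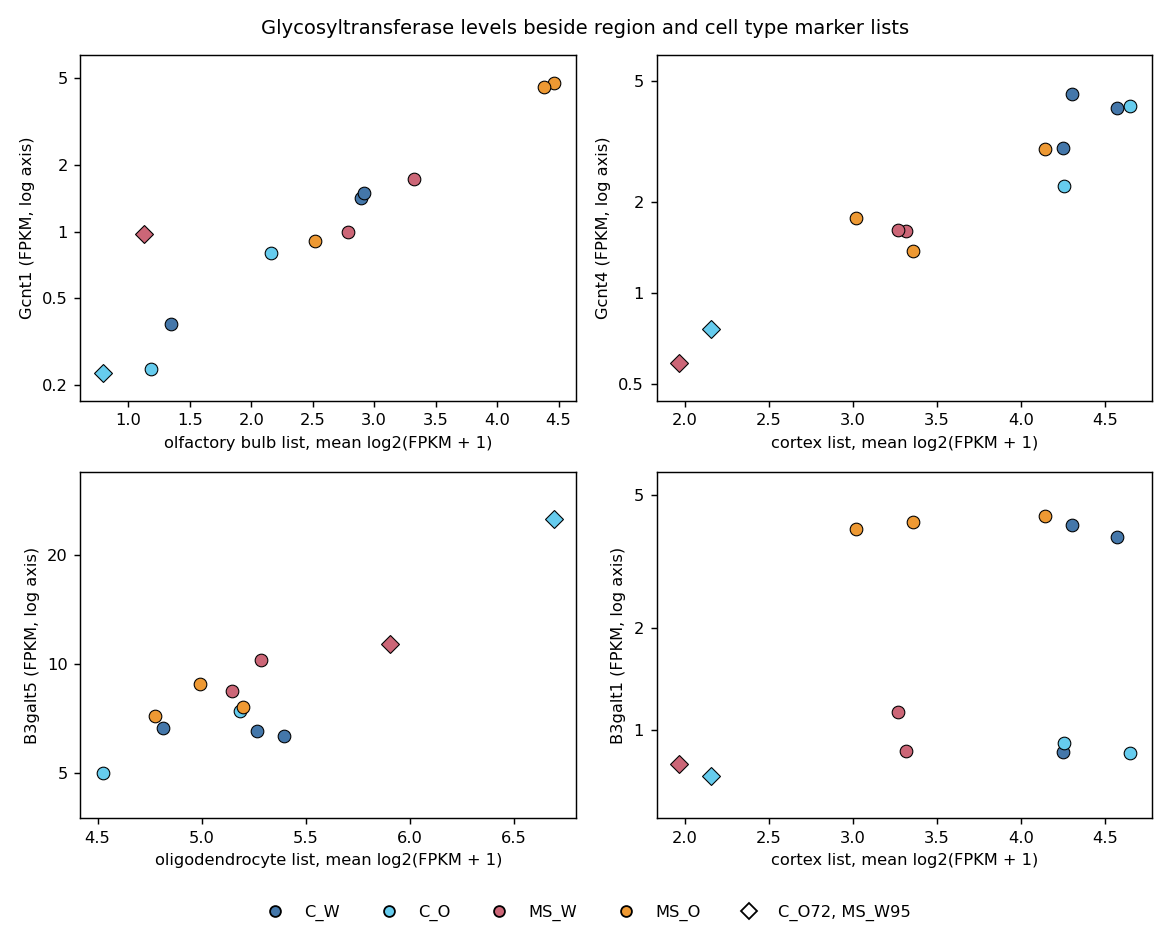
Level of Gcnt1, Gcnt4, B3galt5 and B3galt1 in FPKM (log axis) against the mean log2(FPKM + 1) of the 8 markers of olfactory bulb, cortex, oligodendrocytes and cortex, with 1 point per library, colours for groups and diamonds for C_O72 and MS_W95. Gcnt1 and Gcnt4 lie along their lists (correlations of 0.94 and 0.95 over 12 libraries), while B3galt1 takes low and high values at the same level of the cortex list (0.29).

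Gcnt4, which also makes core 2 branches, was lower in MS_W than in C_W, where CUMS is compared with no stress in mice given water. It was 3.00, 4.09 and 4.52 FPKM in C_W and 1.60, 1.61 and 0.587 FPKM in MS_W, so that the groups did not overlap. The means were 3.87 ± 0.784 and 1.27 ± 0.588 FPKM (SD, n = 3), a 3.06-fold lower level, and the log2 fold change was -1.13 ± 0.36. It did not pass over all genes (limma, adjusted p = 0.354, with 0.116 to 0.981 over the alternatives). Without C_O72 and MS_W95 the log2 fold change was -0.89 ± 0.26 (limma, adjusted p = 0.163). It was -0.39 with the expression-sum covariate, the summed log2(FPKM + 1) of the most abundant genes of each library. In C_O it was 4.13, 2.24 and 0.758 FPKM and in MS_O 2.99, 1.77 and 1.37 FPKM, and these groups overlapped with each other.

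B3galt2, another enzyme of type 1 chains, went the same way. It was 3.02, 4.06 and 3.63 FPKM in C_W and 2.54, 2.34 and 1.05 FPKM in MS_W, again without overlap, with a log2 fold change of -0.65 ± 0.30 (limma, adjusted p = 0.482). Without C_O72 and MS_W95 it was -0.41 ± 0.18 (limma, adjusted p = 0.339), and with the expression-sum covariate it was -0.056. In C_O it was 3.09, 2.51 and 0.913 FPKM, and in MS_O 2.93, 1.61 and 1.85 FPKM. The lowest value of Gcnt4 and of B3galt2 within C_O was that of C_O72, and within MS_W that of MS_W95. Over the 12 libraries B3galt2 and Gcnt4 had a correlation of 0.93, and of 0.87 over the 10 without those 2 libraries.

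The cortex markers (8 genes, among them Tbr1, Neurod6 and Slc17a7) were lower together with Gcnt4 and B3galt2. Their sum was 426 to 466 FPKM in C_W, 143 to 445 in C_O, 79.2 to 174 in MS_W and 261 to 317 in MS_O. Of the 8, 7 were lower in MS_W than in C_W without overlap, beside 24.6% of all tested genes in either direction. None of the 8 was at the floor in all libraries of a group. Slc17a7, the vesicular glutamate transporter of cortical excitatory neurons, was 254 to 290 FPKM in C_W and 41.5 to 106 FPKM in MS_W. The mean level of the list had a correlation of 0.95 with Gcnt4 and 0.94 with B3galt2 over 12 libraries, and of 0.89 and 0.85 over 10. Of the 8 astrocyte markers, 6 were higher in MS_W than in C_W without overlap and 1, the glutamate transporter Slc1a2, was lower without overlap. The list had correlations of -0.94 with Gcnt4 and -0.93 with B3galt2. Without overlap, 4 of the 8 cerebellum and 3 of the 8 hypothalamus markers were also higher in MS_W than in C_W. The part of any of these lists in the difference between C_W and MS_W was not tested.

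Gcnt2, the I-branching enzyme, was 1.93, 1.93 and 1.72 FPKM in C_W, 2.58, 1.73 and 0.982 FPKM in C_O, 2.13, 1.07 and 0.850 FPKM in MS_W, and 3.23, 0.677 and 1.46 FPKM in MS_O. The 3 C_W mice were close together, whereas MS_O held both the highest and the lowest value of all 12 libraries, and all groups overlapped. No comparison passed, with log2 fold changes from -0.32 (MS_W against C_W, limma adjusted p = 0.718) to 0.18 (MS_O against MS_W, adjusted p = 0.923). Over the 10 libraries these were -0.17 and 0.026. With all libraries Gcnt2 was correlated with B3galt2 at 0.73, and at 0.62 over 10 libraries.

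B3galt5, which acts on type 1 chains of O-glycans and lacto-series glycolipids, was the most abundant of the 7 genes. It was 6.51, 6.66 and 6.33 FPKM in C_W and 8.40, 10.3 and 11.3 FPKM in MS_W, without overlap (limma, log2 fold change 0.54 ± 0.41, adjusted p = 0.634). It was 7.42, 4.99 and 25.2 FPKM in C_O and 7.62, 8.77 and 7.19 FPKM in MS_O. C_O72 alone was more than double any other library, and the direction of 2 comparisons rested on it: without C_O72 the log2 fold change turned from 0.55 to -0.08 for C_O against C_W and from -0.31 to 0.31 for MS_O against C_O. Over the 10 libraries the difference between C_W and MS_W was 0.46 ± 0.15 (adjusted p = 0.213).

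Oligodendrocyte markers were highest in the same library. The 8 genes (genes of myelin and its synthesis, such as Mbp) summed to 1252 FPKM in C_O72 and 701 FPKM in MS_W95, against 257 to 497 FPKM in the other 10 libraries, and none was at the floor in all libraries of a group. The correlation of B3galt5 with this list was 0.90 over 12 libraries but 0.49 over 10, so that it rested mainly on C_O72 and MS_W95. It was not particular to this list. Over 12 libraries the correlation was 0.86 with hindbrain, 0.82 with endothelium, 0.80 with astrocyte and -0.79 with cortex markers. Over 10 libraries these were 0.66, 0.31, 0.45 and -0.67, and that with striatum markers was 0.54. Between C_W and MS_W all 8 oligodendrocyte markers had a higher mean in MS_W, with none free of overlap, beside 24.6% of all tested genes. The part of oligodendrocyte RNA in the B3galt5 values was not tested.

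B3galt6, the galactosyltransferase of the proteoglycan linker, was 4.64, 3.98 and 3.78 FPKM in C_W, 4.31, 4.28 and 3.06 FPKM in C_O, 4.44, 4.66 and 4.55 FPKM in MS_W, and 4.59, 4.44 and 5.04 FPKM in MS_O. All 3 MS_O mice were above all 3 C_O mice, by a log2 fold change of 0.23 ± 0.12 (limma, adjusted p = 0.619) that was 0.10 ± 0.10 over the 10 libraries. The other comparisons lay between -0.08 and 0.12 on the log2 scale. The lowest level was that of C_O72.

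**Figure D3:**
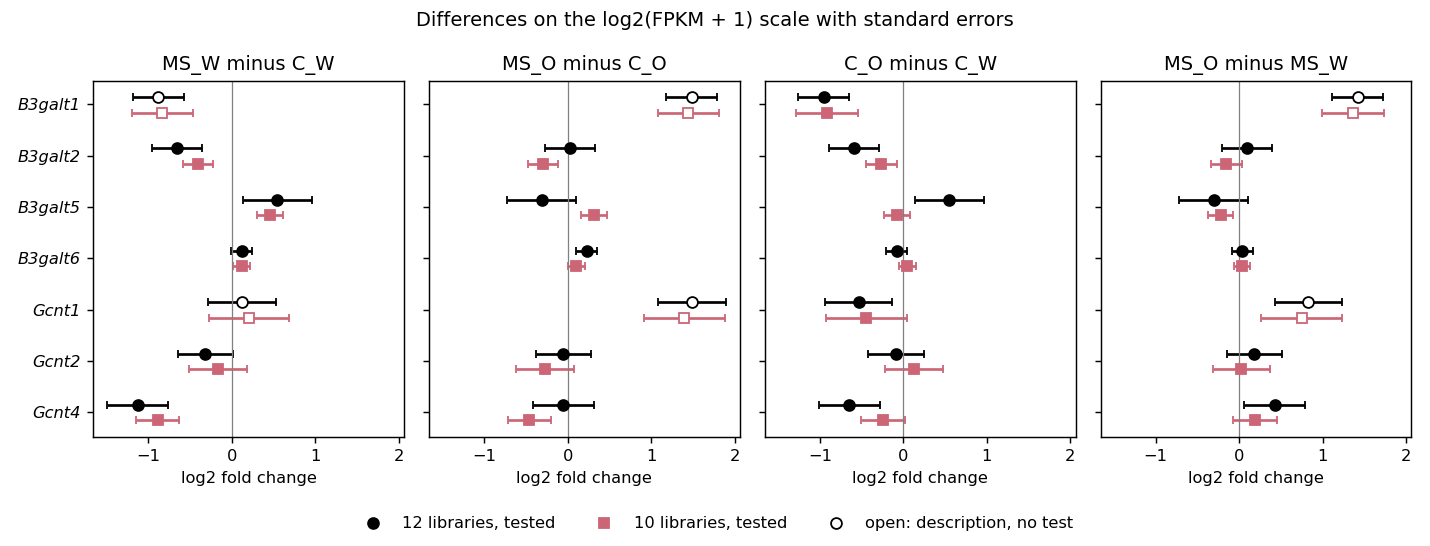
Log2 fold change on the log2(FPKM + 1) scale with its standard error for the 7 genes in the 4 comparisons, from 12 libraries (black circles) and from 10 without C_O72 and MS_W95 (red squares), with open symbols where the value is description only. Gcnt4 is lowest in MS_W minus C_W (-1.13 and -0.89), and B3galt5 changes sign between the 2 fits in MS_O minus C_O (-0.31 and 0.31) and in C_O minus C_W (0.55 and -0.08).

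Counted together, none of the genes tested in a comparison passed the adjusted threshold of 0.05 in limma with all 12 libraries. For C_W against MS_W this was 0 of 5 genes, beside 0.00467% of all tested genes, and 1 of 5 (Gcnt4) had an unadjusted p under 0.05 beside 10.5%. In that comparison 3 of 5 genes did not overlap between the groups (B3galt2 and Gcnt4 lower, B3galt5 higher), beside 24.6% of all tested genes. For C_O against MS_O, 0 of 5 passed (background 0.00467%), 0 of 5 had an unadjusted p under 0.05 (background 8.88%), and 1 of 5 did not overlap (background 12.2%). For C_W against C_O, 0 of 7 passed (background 0%), 1 of 7 (B3galt1) had an unadjusted p under 0.05 (background 3.55%) and 0 of 7 were free of overlap (background 9.42%). For MS_W against MS_O, 0 of 5 passed (background 0.00467%), 0 of 5 had an unadjusted p under 0.05 (background 6.09%) and 0 of 5 were free of overlap (background 12.3%). edgeR and DESeq2 also called none of the counted genes, other than B3galt1 by DESeq2 in C_W against C_O. DESeq2 called 54 of all 21393 tested genes in that comparison. It called 389 for C_W against MS_W, 172 for C_O against MS_O and 79 for MS_W against MS_O. edgeR called 0 for C_W against C_O and 1 in each of the other comparisons. With 3 mice against 3, an exact two-sided permutation test of a single gene cannot go below a p of 0.1. A limma p under 0.05 before adjustment together with a log2 ratio of means beyond 1 in either direction, the study's thresholds but not its p-values, was found for Gcnt4 in C_W against MS_W (ratio -1.61, beside 4.59% of tested genes) and for B3galt1 in C_W against C_O (ratio -1.80, beside 1.76%), and for 0 of 5 genes in C_O against MS_O (beside 3.57%) and in MS_W against MS_O (beside 2.81%).

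Whether the CUMS difference depended on krill oil was tested as the difference of (MS_O minus C_O) and (MS_W minus C_W). It passed for 0 of 5 genes in limma (background 0%, and 0 of 5 at an unadjusted p under 0.05 beside 7.23%). edgeR and DESeq2 called none of the 5 either, beside 0 and 151 of all tested genes. The largest values were 1.08 ± 0.51 for Gcnt4 (adjusted p = 0.665) and -0.86 ± 0.59 for B3galt5 (adjusted p = 0.669). Without C_O72 and MS_W95 they were 0.43 and -0.14. As description, the same quantity was 2.37 for B3galt1 and 1.37 for Gcnt1.

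The genes whose pattern over the 12 libraries was most like that of each gene, among 13621 with a mean of at least 1 FPKM, differed between the 7. For Gcnt1 they were Ush1g (correlation 0.99), Map3k1 (0.98) and Gdpd5 (0.98), and Ush1g ran from 0.150 to 6.57 FPKM. For Gcnt4 they were Nos1ap (0.98), Rapgef4 (0.97) and Serpinb8 (0.97), and for B3galt2 they were Pde1a, a calcium-dependent phosphodiesterase (0.98), C1ql3 (0.97) and Creg2 (0.97). For B3galt5 they were Gltp, which transfers glycolipids between membranes (0.97), Slbp (0.96) and Carns1 (0.96), which fell to 0.84, 0.87 and 0.80 over the 10 libraries. For B3galt6 they were Zfp628 (0.92), Prrt1 (0.90) and Nrxn3 (0.90), and for Gcnt2 S100a6 (0.91), Cfap74 (0.90) and 9330179D12Rik (0.88). B3galt1 had the weakest likeness, to Pusl1 (0.87), Mir6972 (0.86) and Tmem147os (0.85), and Pusl1 ran only from 3.66 to 5.44 FPKM. The 12 points behind each correlation share the differences in regional markers between libraries.

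Around these enzymes, 91 other glycosyltransferase genes in 7 lists were examined, of which 85 entries of the table were tested. None passed the adjusted threshold in limma in any of the 4 comparisons, with the smallest adjusted p at 0.322. Without C_O72 and MS_W95, 83 were tested and 1, B3gnt2 in MS_W against C_W, passed, beside 1.18% of all tested genes in that comparison. At an unadjusted p under 0.05, 9 were higher and 4 lower in MS_W than in C_W (background 6.71% higher and 3.79% lower), 5 higher and 2 lower in MS_O than in C_O (6.69% and 2.18%), 1 higher and 2 lower in C_O than in C_W (1.51% and 2.04%), and 2 higher and 3 lower in MS_O than in MS_W (2.63% and 3.46%). The median log2 fold change of the 85 was 0.05, 0.04, 0.02 and 0.01 in these comparisons, against 0.06, 0.03, 0.00 and -0.02 over all tested genes.

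Among the nearest relatives, B3galt4, the synthase of the gangliosides GM1 and GD1b, was 2.14 to 3.35 FPKM in the 12 libraries. C1galt1, which makes the core 1 O-glycan on which Gcnt1 and Gcnt4 act, was 2.71, 2.79 and 2.36 FPKM in C_O and 3.21, 4.67 and 3.28 FPKM in MS_O, without overlap (limma, log2 fold change 0.37 ± 0.15, adjusted p = 0.548). C1galt1c1, its chaperone, was 9.90 to 17.2 FPKM. None of the 6 tested relatives passed in any comparison with all libraries, and Gcnt3 and Gcnt7 were below the filter. The 9 listed beta-1,3-N-acetylglucosaminyltransferases include, but are not limited to, enzymes that lengthen the chains that Gcnt2 branches. Of the 9, 3 had an unadjusted p under 0.05 in limma in MS_W against C_W, all higher, beside 6.71% of all tested genes. They were B3gnt6, B3gnt8 and B3gntl1, named after their values were seen. Their log2 fold changes were 0.17, 0.25 and 0.32, and 0.13, 0.17 and 0.36 without C_O72 and MS_W95. Of these 3, only B3gntl1 kept an unadjusted p under 0.05 without those libraries (limma, 0.0106, against 0.0681 for B3gnt6 and 0.126 for B3gnt8). B3gnt2, not among the 3, was 4.90 to 5.28 FPKM in C_W and 9.38, 11.5 and 4.64 FPKM in MS_W, so that MS_W95 was below the control mice. Its log2 fold change was 0.57 ± 0.27 (limma, adjusted p = 0.486) with all libraries and 0.91 ± 0.11 (adjusted p = 0.00836) without C_O72 and MS_W95. B3gnt2 was also 7.61, 8.43 and 4.91 FPKM in C_O and 9.01, 8.08 and 7.46 FPKM in MS_O, so a higher level was not particular to MS_W. Without C_O72 and MS_W95, C_O was above C_W by 0.57 ± 0.11 (limma, adjusted p = 0.813). B3gnt4 was 0.196, 0.0246 and 0.0531 FPKM in MS_W and 0.454, 0.553 and 0.532 FPKM in MS_O, a difference of 0.47 ± 0.12 on the log2(FPKM + 1) scale (limma, adjusted p = 0.558). It was also higher in MS_O than in C_O, by 0.36 ± 0.12 (adjusted p = 0.479). B3gnt6 was between 0.109 and 0.376 FPKM, with a difference of -0.22 between MS_O and MS_W (adjusted p = 0.743), and B3gnt5 was between 0.0417 and 0.826 FPKM with the highest value in MS_W95.

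In glycosphingolipid synthesis, Ugcg, which makes glucosylceramide, was 12.3 to 15.5 FPKM in all libraries. Ugt8a, which makes the galactosylceramide of myelin and is also among the oligodendrocyte markers, was 22.5 FPKM in C_O72 and 14.4 in MS_W95 against 4.02 to 8.54 FPKM elsewhere, the same 2 libraries in which B3galt5 was highest. B4galnt1 and St3gal5, which make complex gangliosides and GM3, were lower in MS_W than in C_W without overlap (39.4 ± 1.29 against 28.9 ± 7.67 FPKM and 63.7 ± 4.25 against 51.9 ± 3.06 FPKM), with adjusted p of 0.576 and 0.532 in limma. For B4galnt1 the log2 fold change was -0.47 with all libraries and -0.24 without C_O72 and MS_W95. For St3gal5 it hardly moved, from -0.291 to -0.286. St8sia1, the GD3 synthase, was 5.43 to 6.20 FPKM in C_W and 6.31, 6.28 and 10.9 FPKM in MS_W (adjusted p = 0.618), a log2 fold change of 0.32 that was 0.09 without the same 2 libraries. The lactosylceramide synthases B4galt5 and B4galt6 were 9.85 to 12.5 and 16.2 to 23.8 FPKM. Gbgt1, a globoside enzyme, was 0.109 to 0.227 FPKM in C_W and 0.321 to 0.755 FPKM in C_O (log2 fold change 0.38 ± 0.11, limma adjusted p = 0.908).

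For the proteoglycan linker, in which B3galt6 acts, Xylt1 was 3.06 to 6.15 FPKM and B4galt7 6.41 to 8.00 FPKM over the 12 libraries. B3gat3, which adds the glucuronic acid after the galactose of B3galt6, was 79.7, 67.5 and 44.9 FPKM in C_W and 40.3, 41.1 and 42.9 FPKM in MS_W (log2 fold change -0.58 ± 0.17, limma adjusted p = 0.322). All 3 MS_W mice were below the lowest C_W mouse, which was C_W70. Extl1, a heparan sulfate chain enzyme, was 18.6, 19.8 and 21.5 FPKM in C_W and 10.9, 11.1 and 4.89 FPKM in MS_W. The log2 fold change was -1.15 ± 0.39 (limma, adjusted p = 0.358), in the same direction as the cortex markers. From C_O to MS_O it was -0.45 ± 0.39, with overlap (limma, adjusted p = 0.745). Without C_O72 and MS_W95 each of these comparisons gave -0.81. Galnt9, which initiates mucin-type O-glycans, was 37.0, 31.2 and 40.0 FPKM in C_W and 16.3, 10.4 and 21.6 FPKM in MS_W (-1.16 ± 0.40, adjusted p = 0.358), and it was also lower in MS_O than in C_O (-1.22 ± 0.40, adjusted p = 0.479). Fut4, a fucosyltransferase of Lewis antigens, was at most 0.269 FPKM, with 0.0117 to 0.0709 FPKM in C_W and 0.162 to 0.269 FPKM in MS_W (adjusted p = 0.326). B4galt1, the main enzyme of type 2 chains, was 1.13 to 1.97 FPKM, again highest in C_O72.

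**Figure D4:**
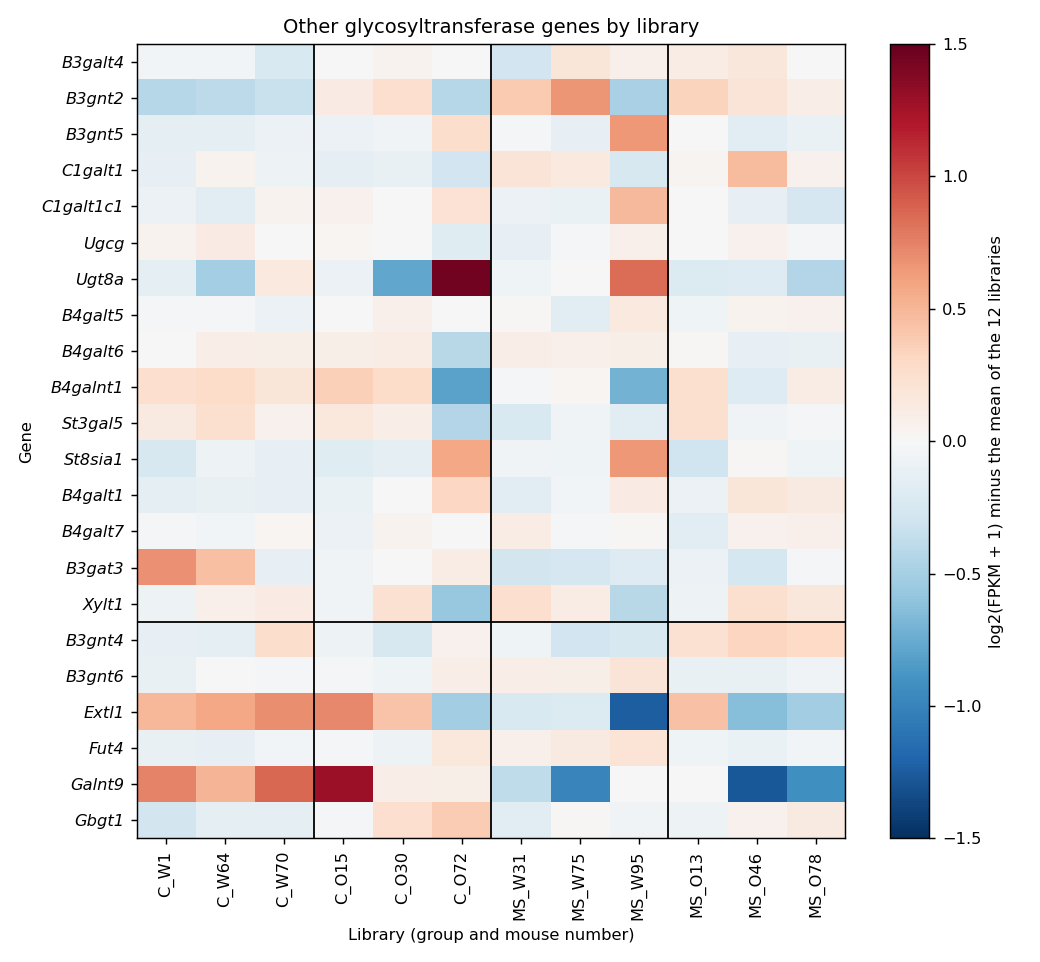
Log2(FPKM + 1) minus the mean of the 12 libraries (colour) for 22 other glycosyltransferase genes (rows, with the 6 below the line named for a p under 0.05 before adjustment with a log2 ratio beyond 1 in either direction) in 12 libraries (columns, grouped as C_W, C_O, MS_W and MS_O). Ugt8a is highest in C_O72 (22.5 FPKM) and MS_W95 (14.4 FPKM), and Galnt9 and Extl1 are higher in the C_W libraries than in those of MS_W.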

How the data were processed

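Poly(A) RNA of 12 mice, from tissue described as whole brain, was sequenced as paired-end reads. The authors trimmed reads, aligned them with HISAT2, assembled transcripts with StringTie and estimated FPKM per gene. The submitters' processing notes name cutadapt 1.9, HISAT2 2.0.4, StringTie 1.3.4d and build mm10. The deposited estimated counts equal FPKM times gene length times a factor per library, so they are not independent of FPKM, and they are whole numbers as deposited. Their sums were 50912906 to 75678721 per library, above the raw reads that the paper lists for each library, so they are not sequencing depth. The same estimated counts entered edgeR and DESeq2.

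The test was limma 3.58.1 (lmFit, eBayes with trend) in R 4.3.3 on log2(FPKM + 1). The 4 groups entered 1 fit over the 21393 genes whose mean FPKM reached 0.1, with Benjamini-Hochberg adjustment over all of them. Fold changes on this scale understate the change of low genes. All 7 genes were described. Of the 91 listed genes, 16 were fixed for naming, and 6 were named for a p under 0.05 before adjustment with a log2 ratio of means beyond 1 in either direction. For each of the 7 genes the 3 with the highest Pearson correlation were also named. The 7 genes and all lists were chosen with earlier results of these data known. Alternatives were a pseudocount of 0.1, no filter, a filter at a mean of 1 FPKM, quantile normalization, median centring and 2-group fits. Further ones were the expression-sum covariate, edgeR 4.0.16, DESeq2 1.42.0, each library left out, and 10 libraries. That covariate was the sum of the highest log2(FPKM + 1) values of a library, and not its number of reads. Its fit was unmoderated and on simulated data recovered few changes. Marker lists of 12 regions and cell types were scored as mean log2(FPKM + 1), and some of their genes are not reported here by name. Values are given mainly for cortex, olfactory bulb, hindbrain, cerebellum, astrocytes and oligodendrocytes. The correlations of the other lists (striatum, hypothalamus, microglia, endothelium, choroid plexus and blood) with the 7 genes lay between -0.83 and 0.82 over 12 libraries. Promoters were from RefSeq (GRCm38.p6), in which all 7 genes were found. Mice are the replicates, and nothing in the labels links mice of different groups.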

Additional observations from a re-analysis of the deposited data

How the results depend on the processing

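No paired analysis was possible because the groups share no mouse numbers in the labels. For C_W against MS_W, C_O against MS_O, MS_W against MS_O and the interaction, 5 genes were counted, without B3galt1 and Gcnt1. The number of them past an adjusted p of 0.05 was 0 under every alternative. For C_W against C_O, counted over all 7 genes, it was 1 (B3galt1) under DESeq2, beside 54 of all tested genes. It was 0 to 1 when single libraries were left out, with 1 only without C_W1, beside 4 of all tested genes. Of 589 alternative values of 27 gene-level differences with a test, 553 kept their direction and call, 2 (both B3galt1 in C_W against C_O) came to pass, and 34 turned direction, none of them past the threshold.

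For C_O against MS_O, B3galt2 turned from 0.03 to -0.037 with quantile normalization, -0.049 with median centring, -0.089 in edgeR, -0.096 in DESeq2 and -0.30 over 10 libraries. B3galt5 turned to 0.31 over 10 libraries, and with the expression-sum covariate Gcnt2 turned to 0.18 and Gcnt4 to 0.32. With single libraries left out, B3galt2 spanned -0.30 to 0.25, B3galt5 -0.75 to 0.31, Gcnt2 -0.40 to 0.26 and Gcnt4 -0.46 to 0.31. For C_W against C_O, the 10 libraries gave -0.078 for B3galt5, 0.049 for B3galt6 and 0.13 for Gcnt2, and the covariate gave 0.040 for Gcnt2. The ranges with single libraries left out were -0.078 to 0.99 for B3galt5, -0.15 to 0.049 for B3galt6 and -0.30 to 0.13 for Gcnt2. For MS_W against MS_O, B3galt2 turned to -0.033 with the covariate and -0.15 over 10 libraries, and the ranges were -0.15 to 0.24 for B3galt2, -0.0087 to 0.067 for B3galt6 and -0.17 to 0.49 for Gcnt2. For C_W against MS_W, the covariate turned B3galt5 to -0.23 and Gcnt2 to 0.13, and B3galt2 was -0.056 with it and -0.41 without MS_W95, against -0.65. In the interaction, the 10 libraries gave -0.013 for B3galt6 and -0.10 for Gcnt2, with ranges of -0.013 to 0.18 and -0.085 to 0.58. The cause of these turns was not tested.

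Without C_O72 and MS_W95, 250 genes (1.18%) passed for C_W against MS_W, and 0 of the 5 counted glycosyltransferases did. Where 2 mice remained in a group, the fit took their spread from all groups. The ranges above are on the log2(FPKM + 1) scale, apart from edgeR and DESeq2.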
